A study of Mus musculus with 46 samples.

Results

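Wild-type CD8 single-positive thymocytes (CD8SP, cells that carry CD8 and not CD4) were compared with wild-type CD4 single-positive thymocytes (CD4SP, the converse) by RNA sequencing. The comparison rests on 6 of the 40 RNA libraries of the series, 3 per group, chosen by genotype and sorted population in the sample labels and by no measured value. Both groups are primary thymocytes sorted from C57BL/6 mice labelled wild type, kept under specific-pathogen-free conditions and given no treatment that the labels name. The sources used here do not give age, sex, sort gates or any pooling of animals, nor whether the level of the T-cell receptor was part of the sort. The series also holds wild-type DN3, total double-negative (DN) and double-positive (DP) thymocytes. Mice of the same strain with the genotype hCD2-LMO2 knock-in gave the other libraries used here, which are splenic CD8+ and CD4+ T cells and CD8SP and CD4SP thymocytes, 3 libraries each. That genotype carries LMO2 under control elements of human CD2, which are active throughout the T lineage. No label says that replicates came from separate mice, so p-values measure only the spread between these libraries, which may be technical.

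Thymocytes pass from the double-negative to the double-positive stage, at which both coreceptors are displayed and the T-cell receptor alpha chain is rearranged. Positive selection on MHC class II directs a cell to the CD4 lineage and selection on MHC class I to the CD8 lineage. ThPOK, the product of Zbtb7b, is required for the CD4 lineage, and Runx3 silences Cd4 and supports the cytotoxic programme in the CD8 lineage. The CD4SP compartment also contains regulatory T cells and some innate-like cells such as invariant NKT cells. A gate on CD8 without CD4 can also take in immature single-positive cells, dividing cells that display CD8 on the way from the double-negative to the double-positive stage.

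The table holds 19521 genes, and 11859 of them had enough counts to be tested between the 2 groups. Library totals lay between 21432962 and 26908811 counts. Levels are given as CPM, read counts scaled to a common library size by TMM over the 6 libraries, unless another scale is named, and the 3 values of a group are always in the order of replicates 1, 2 and 3. List sums, levels of libraries outside these 6 and means set beside those levels are on the scale of all 40 libraries. The exceptions are means named as scaled over 12 libraries. A difference is the log2 fold change of CD8SP over CD4SP with its standard error, and a gene is called changed when its Benjamini-Hochberg adjusted p in edgeR's quasi-likelihood test, two-sided and over all tested genes, is under 0.05. The first principal component held 74.8% of the variance and separated the groups, with CD8SP libraries between 49.2 and 58.4 and CD4SP libraries between -59.2 and -40.9. CD4SP replicates 1 and 2 were far closer to each other than any other pair, with a chi-square per degree of freedom of 6.63 over genes against 37.7 to 93.6 for the other pairs within a group, and were kept as separate libraries.

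Both replicates 3 stood apart within their groups, in the direction of double-positive cells. The summed level of a list of 20 double-positive genes, scaled over all 40 libraries, was 4505, 3547 and 9309 CPM in CD8SP and 2168, 2191 and 3208 CPM in CD4SP, against 19060 to 21621 CPM in wild-type DP libraries. Rag1, the recombinase gene of that stage, had 644, 462 and 3000.3 CPM in CD8SP and 62.5, 48.4 and 295 CPM in CD4SP, and Cd4 itself had 94.5, 31.0 and 848 CPM in the 3 CD8SP libraries. The counts of changed genes below were therefore repeated without both replicates 3, an alternative chosen after the data were seen. That setting leaves CD4SP replicates 1 and 2, the closest pair, as the only CD4SP libraries. The spread within CD4SP may then be too small, and all p-values and counts of this setting carry that limit. The fit without CD4SP replicate 3 alone rests on the same pair. The pair also makes up 2 of the 3 CD4SP libraries of the main fit, whose p-values may be too small as well. Sums of markers of B cells and myeloid cells were low in both groups. B-cell markers summed to 12.3 to 24.9 CPM in CD8SP and 4.01 to 6.92 CPM in CD4SP, myeloid markers to 9.34 to 28.9 CPM and 22.1 to 45.1 CPM, and erythroid and platelet markers to 18.4 to 185.5 CPM and 26.0 to 105.5 CPM. Of the tested markers in these 3 lists, 1 of 5 B-cell genes rose (Cd79b), and 0 of 8 myeloid and 0 of 6 erythroid genes were called. Mpo had 0 counts in all CD8SP libraries, and Elane and Ppbp had 0 in all CD4SP libraries. Dendritic markers summed to 625 to 1053 CPM in CD8SP and 815 to 1177 CPM in CD4SP, most of it Ccr9. Cd74 reached 132 CPM and H2-Ab1 47.1 CPM in CD8SP, against 76.6 and 11.3 CPM in CD4SP. Stroma markers summed to 154 to 196 CPM and 233 to 263 CPM, most of it Pecam1. Of 12 tested dendritic genes 1 rose, and of 7 stroma genes 1 rose and 1 fell. The shares over all tested genes were 24.1% higher and 20.6% lower. The marker sums and levels, from the B-cell markers on, are on the scale of all 40 libraries.

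Of the T-cell markers, the CD3 chain genes did not pass the test, with log2 fold changes of -0.03 for Cd3d, 0.02 for Cd3e and 0.09 for Cd3g. The T-cell marker list summed to 8618 to 12073 CPM in CD8SP and 8965 to 10570 CPM in CD4SP on the scale of all 40 libraries. Thy1, a surface glycoprotein of thymocytes, rose, and 4 of the 10 T-cell markers fell (Cd2, Cd28, Cd247 and Bcl11b). That number was 2 without CD8SP replicate 1 or CD4SP replicate 3 and 0 in a fit of all 40 RNA libraries. Among all tested genes 20.6% were lower and 24.1% higher in CD8SP. In bulk RNA, fewer cells of a type and less RNA per cell cannot be told apart, which applies to every difference below.

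The 2 sorted populations differed in a large share of the genes measured. In all, 5304 of 11859 genes were changed (44.7%), 2859 of them higher in CD8SP (24.1%) and 2445 lower (20.6%), and the median log2 fold change over all tested genes was -0.00408. At least a 2-fold difference was reached by 2166 of the changed genes, 1194 higher and 972 lower. The 3 libraries of one group lay entirely above or below those of the other for 6795 genes (57.3%), and 5199 of these were changed. Without both replicates 3, where CD4SP rests on 2 closely alike libraries, 6523 genes were changed, 3498 higher and 3025 lower. The count was smaller without CD4SP replicate 2 (3515, 1508 of them lower), without CD4SP replicate 1 (3619, 1573 lower) and in the fit of all RNA libraries (3535, 1345 lower). Counts over gene lists are therefore read below against these shares.

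**Figure D1:**
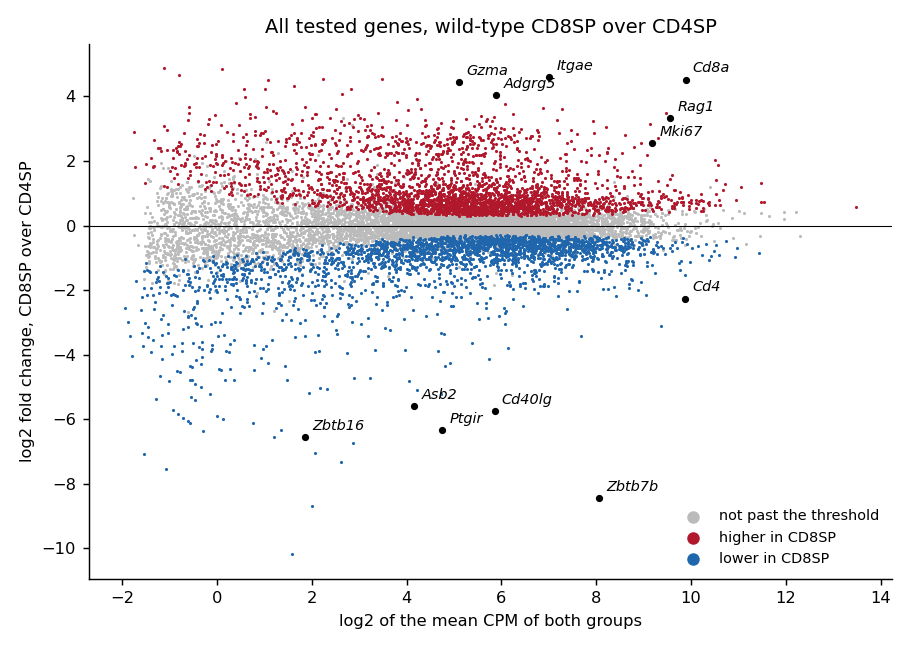
Each point is 1 of the 11859 tested genes, with the log2 of its mean CPM over both groups on the x axis and its log2 fold change, CD8SP over CD4SP, on the y axis. The 2859 genes above the line in red and the 2445 below it in blue are past the threshold, and the lowest well-expressed point is Zbtb7b at -8.44; the fold changes of genes at or near 0 counts in CD8SP, at the lower left, depend on the prior count of the fit.

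The genes of the sort markers separated the groups. Cd8a had 1805, 1694 and 1943 CPM in CD8SP and 46.7, 43.2 and 147 CPM in CD4SP, a log2 fold change of 4.52 ± 0.52 (adjusted p = 0.000505). Cd8b1, for the other CD8 chain and also on chromosome 6, had 1236, 1137 and 1559 CPM in CD8SP and 73.7, 69.0 and 211 CPM in CD4SP (3.47 ± 0.46, adjusted p = 0.00104). No library of one group reached the level of the other for either gene, and CD4SP replicate 3 was the highest CD4SP library for both. Cd4 did not pass the test: it had 94.5, 31.0 and 848 CPM in CD8SP and 1375, 1417 and 1887 CPM in CD4SP, a log2 fold change of -2.27 ± 1.05 (adjusted p = 0.117). All CD8SP libraries lay below all CD4SP libraries, but CD8SP replicate 3 was far above the other CD8SP libraries. Without that library the log2 fold change of Cd4 was -4.65 (adjusted p = 0.00117), and without both replicates 3 it was -4.48 (adjusted p = 0.00174).

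Among regulators of the lineage choice, the largest difference was that of Zbtb7b, the gene of ThPOK. It had 1.39, 0.597 and 2.66 CPM in CD8SP and 528, 528 and 539 CPM in CD4SP, and fell by 8.44 on the log2 scale (SE 0.45, adjusted p = 1.73e-05). The CD4SP libraries agreed within a few percent, and no CD8SP library exceeded 3 CPM. Per length, in the deposited FPKM, Zbtb7b stood at 0.370, 0.170 and 0.750 in CD8SP and 154, 152 and 149.5 in CD4SP. Runx3, which opposes ThPOK, had 127, 131 and 79.9 CPM in CD8SP and 82.9, 80.5 and 133 CPM in CD4SP. Its groups overlapped, because replicate 3 was the lowest library of CD8SP and the highest of CD4SP, and the log2 fold change was 0.19 ± 0.25 (adjusted p = 0.56). Without both replicates 3, Runx3 was higher in CD8SP by 0.67 (adjusted p = 0.00229). That fit keeps only the closely alike CD4SP replicates 1 and 2, so its p-value may be too small. In FPKM Runx3 stood at 33.6, 36.7 and 22.9 in CD8SP and 25.7, 24.5 and 39.6 in CD4SP. On this per-length scale Runx3 was the more abundant of these 2 factors in CD8SP and Zbtb7b the more abundant in CD4SP.

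Gata3, needed for the CD4 lineage upstream of ThPOK, had 92.8, 54.1 and 92.7 CPM in CD8SP and 210.0, 204 and 327 CPM in CD4SP (-1.63 ± 0.26, adjusted p = 0.00187). Tox, also required for CD4 lineage cells, had 213, 124 and 215 CPM in CD8SP and 381, 349.7 and 461 CPM in CD4SP (-1.11 ± 0.23, adjusted p = 0.00525). Neither gene's groups overlapped, and CD8SP replicate 2 was the lowest library for both. Of the 24 tested lineage regulators, 3 rose, 10 fell and 11 did not pass the test, against 24.1% and 20.6% of all tested genes. The list's median log2 fold change was -0.07. Bach2, a repressor that restrains effector differentiation (-2.04 ± 0.18), Runx1, another Runt-family factor (-1.05 ± 0.16), and Id2, an inhibitor of E proteins (-1.87 ± 0.29), were among those that fell. The 3 that rose were Myb (2.19), a factor of proliferating precursors, and the E-protein genes Tcf3 (0.68) and Tcf12, which had 382, 337 and 535 CPM in CD8SP and 212, 192 and 223 CPM in CD4SP. Without both replicates 3, 6 of the list rose.

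**Figure D2:**
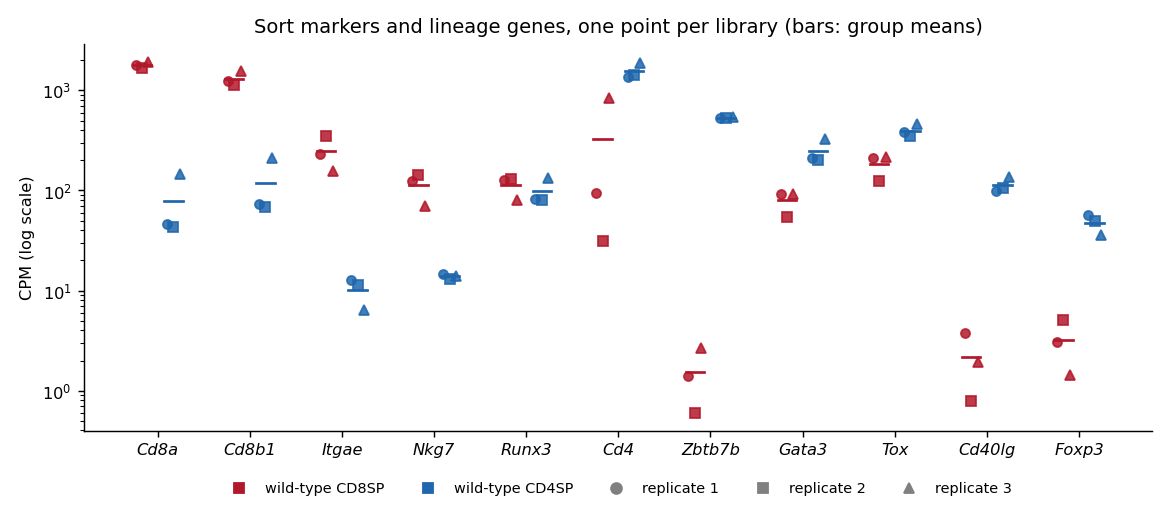
CPM on a log axis of sort markers, lineage regulators and programme genes in each wild-type library, CD8SP in red left of CD4SP in blue, with symbols for the replicate and short bars for group means. CD8SP replicate 3 lies near the CD4SP libraries for Cd4 (848 CPM against 1375 to 1887 CPM), while all CD8SP libraries are below 3 CPM for Zbtb7b.

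The genes with the largest increases in CD8SP included Itgae and Gzma of the cytotoxic list and several genes that were also high in DN3 thymocytes. Itgae, the integrin chain CD103 that binds E-cadherin, had 234, 350.3 and 156 CPM in CD8SP and 12.8, 11.3 and 6.43 CPM in CD4SP, the largest increase by the rule used for named genes (4.60 ± 0.38, adjusted p = 9.06e-05). Gzma, a granule protease, had 63.8, 78.3 and 55.6 CPM in CD8SP and 0.986, 1.16 and 7.07 CPM in CD4SP (4.44 ± 0.70, adjusted p = 0.00236). The groups were apart for both, and the CD4SP library with the most Gzma was replicate 3. On the scale of all 40 libraries, Itgae averaged 9.89 ± 4.33 CPM in DN3 and 1.31 ± 0.696 CPM in DP cells (SD, n = 3 each), below the CD8SP mean of 243 ± 96.7 CPM. Gzma averaged 209.6 ± 20.7 CPM in DN3, 142 ± 40.9 CPM in total DN and 17.4 ± 3.24 CPM in DP cells, against 64.9 ± 11.4 CPM in CD8SP, so that its highest level was in DN3 cells.

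Several others of the 12 largest increases were also higher in DN3 than in CD8SP. Gfra1, a receptor for neurotrophic factors of the GDNF family, averaged 186 ± 21.4 CPM in DN3, 15.3 ± 2.94 CPM in DP, 34.6 ± 6.55 CPM in CD8SP and 2.32 ± 2.09 CPM in CD4SP (SD, n = 3 each), with a CD8SP over CD4SP difference of 3.93 ± 0.55. Ly6d, a surface marker of early lymphoid cells, averaged 588 ± 78.8 CPM in DN3, 323 ± 33.1 CPM in DP, 214 ± 59.8 CPM in CD8SP and 17.5 ± 15.3 CPM in CD4SP (3.64 ± 0.61). Gpr25, an orphan receptor, averaged 98.0 ± 6.89 CPM in DN3, 2.06 ± 0.255 CPM in DP, 20.9 ± 3.30 CPM in CD8SP and 0.930 ± 1.01 CPM in CD4SP (4.53 ± 0.62). Gpr25, Gzma, Gfra1, Mcoln2, Tnfrsf8 and Ly6d had a higher mean in DN3 than in CD8SP, whereas Cd8a and Slc6a19 were highest in DP among these stages. Itgae, Kcnc1, a potassium channel gene, and Adgrg5, an adhesion receptor gene, had means in both DN3 and DP below their CD8SP means, and Adgrg5 had 79.6, 188 and 67.0 CPM in CD8SP and 7.89, 7.89 and 4.49 CPM in CD4SP (4.04 ± 0.46). The remaining increase was Nt5dc2, with 146, 118 and 110.1 CPM in CD8SP and 4.06, 4.61 and 18.8 CPM in CD4SP (3.78 ± 0.59).

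Cytotoxic genes moved in both directions. Of 24 tested, 10 rose, 7 fell and 7 did not pass the test, against 24.1% and 20.6% of all tested genes. The median log2 fold change was 0.934, and the groups did not overlap for 21, against 57.3% of all tested genes. Nkg7, a granule protein of killer cells, had 124, 144 and 70.0 CPM in CD8SP and 14.8, 13.1 and 13.8 CPM in CD4SP (3.02 ± 0.26, adjusted p = 9.08e-05). Cst7, an inhibitor of granule proteases, had 17.9, 30.0 and 11.7 CPM in CD8SP and 3.11, 3.21 and 2.37 CPM in CD4SP (2.77 ± 0.35), and Dapl1 had 8.29, 9.03 and 6.32 CPM and 1.33, 1.63 and 1.14 CPM in the same order (2.52 ± 0.26). CD8SP replicate 3 was the lowest CD8SP library for these 3 genes. The others that rose were Crtam, Gzma, Prf1, Klrd1, Eomes, Ctsw and Itgae. Fasl, the death ligand, had 0.496, 0.149 and 0.131 CPM in CD8SP and 5.50, 6.23 and 3.68 CPM in CD4SP and fell (-4.34 ± 0.50, adjusted p = 0.000346). With it fell Tbx21 (-1.32), the gene of T-bet, Gzmb (-3.40), Ifng (-3.05), Cxcr3 (-2.47) and the lectin receptor genes Klrk1 (-2.81) and Klrc2 (-4.78). In a fit with all 40 RNA libraries the counts were 6 higher and 4 lower.

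Genes of the helper programme were mostly lower in CD8SP, and Il21 and Cd40lg were among the 12 largest decreases. Cd40lg, the ligand through which helper cells activate B cells, had 3.77, 0.784 and 1.92 CPM in CD8SP and 97.8, 106 and 137 CPM in CD4SP (-5.76 ± 0.47, adjusted p = 0.000112). Il21, a cytokine of follicular helper cells, had 1 count in the 3 CD8SP libraries together and 606 counts in the 3 CD4SP libraries, where it stood at 8.15, 8.86 and 6.86 CPM. Ccr8, a chemokine receptor, had 2.93, 2.46 and 2.57 CPM in CD8SP and 55.6, 52.1 and 53.1 CPM in CD4SP (-4.34 ± 0.14, adjusted p = 2.54e-06). The groups were apart for these 3 genes, and CD4SP replicate 3 had the most Cd40lg and the least Il21. Tnfrsf4, the gene of the costimulatory receptor OX40, had 2.08, 3.69 and 3.10 CPM in CD8SP and 65.6, 58.3 and 49.1 CPM in CD4SP (-4.27 ± 0.22), and Tnfsf11, the gene of RANK ligand, had 6.00, 5.67 and 2.70 CPM in CD8SP and 51.5, 52.5 and 39.3 CPM in CD4SP (-3.32 ± 0.29). RANK ligand from CD4 thymocytes is known to support medullary epithelial cells. Of 20 tested helper genes, 14 fell, 1 rose (Sh2d1a) and 5 did not pass the test, against 20.6% lower among all tested genes. The list's median was -1.54.

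Most of the regulatory T-cell genes tested were lower in CD8SP. Foxp3, the lineage factor of these cells, had 3.08, 5.11 and 1.44 CPM in CD8SP and 56.9, 49.5 and 36.2 CPM in CD4SP (-3.87 ± 0.40, adjusted p = 0.000286). Il2ra, the high-affinity chain of the IL-2 receptor, had 5.90, 5.07 and 4.97 CPM in CD8SP and 47.2, 36.4 and 28.7 CPM in CD4SP (-2.82 ± 0.21, adjusted p = 4.02e-05). The 2 groups did not overlap for either gene, and in both groups replicate 3 was the lowest library. Lrrc32, which anchors latent TGF-beta at the surface of these cells, differed by -3.94 ± 0.37, Gpr83 by -2.39 ± 0.23 and Izumo1r, the gene of folate receptor 4, by -1.95 ± 0.24. Of 19 tested genes of this list, 12 fell, 1 rose (Nrp1) and 6 did not pass the test. The list's median was -1.34, and 20.6% of all tested genes were lower. Ikzf2, the gene of Helios, did not pass the test (0.32 ± 0.16).

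Genes of innate-like and NK-type cells were among the largest decreases. Zbtb16, the gene of PLZF, a factor of invariant NKT cells, had 0.0992, 0.0746 and 0.0436 CPM in CD8SP and 8.84, 6.97 and 5.80 CPM in CD4SP (-6.55 ± 0.39, adjusted p = 1.93e-05). Klrb1c, the gene of NK1.1, had 0.695, 0.784 and 0.131 CPM in CD8SP and 16.7, 15.3 and 11.1 CPM in CD4SP (-4.72 ± 0.46). Il18rap, a chain of the IL-18 receptor, had 1.84, 1.16 and 0.741 CPM in CD8SP and 10.4, 8.36 and 9.91 CPM in CD4SP (-2.95 ± 0.32). Every CD4SP library exceeded every CD8SP library for these 3 genes. Klra9 and Klra7, of the Ly49 receptor family, differed by -7.32 ± 0.44 and -4.44 ± 0.83, although reads may be divided among near-identical family members in a way the deposited counts do not show. In the innate-like list, 7 of 17 tested genes fell, 5 rose and 5 did not pass the test. Of all tested genes, 20.6% were lower and 24.1% higher. The number of the list that rose was 3 without CD4SP replicate 2 and 2 in the fit of all RNA libraries. Among those that rose were Blk, a kinase of B and gamma-delta T cells (2.05 ± 0.40), Slamf6 (1.05), Cd160 (1.41) and Cxcr6 (1.01). On the scale of all 40 libraries, the NK and innate lymphoid marker list summed to 75.2 to 108.6 CPM in CD8SP and 272 to 377 CPM in CD4SP. Most of that sum was Gata3, with 53.6 to 92.2 CPM in CD8SP and 205 to 323 CPM in CD4SP. The sum is therefore not a measure of NK or innate lymphoid cells. The defining gene Ncr1 reached at most 0.144 CPM in CD8SP and 0.0389 CPM in CD4SP. The innate-like list went the other way, with sums of 313, 320 and 568 CPM in CD8SP and 261, 220 and 251 CPM in CD4SP.

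The other large decreases were of mixed function. Akr1c18, a progesterone-metabolising enzyme, had 0 counts in the CD8SP libraries and 460 counts in the CD4SP libraries, where it stood at 7.28, 6.66 and 4.06 CPM. Ptgir, the prostacyclin receptor gene, had 0.645, 0.410 and 0.916 CPM in CD8SP and 52.2, 49.7 and 57.0 CPM in CD4SP (-6.34 ± 0.24, adjusted p = 7.46e-06). Asb2, which encodes a substrate adaptor of a ubiquitin ligase, had 1.09, 0.560 and 0.567 CPM in CD8SP and 34.4, 33.2 and 37.2 CPM in CD4SP (-5.58 ± 0.25). No CD8SP library reached 3 CPM for any of these genes, and the CD4SP libraries were between 4.06 and 57.0 CPM. St8sia6, a sialyltransferase gene (-5.22 ± 0.42), Mmp9, a secreted protease gene (-6.74 ± 0.55), Styk1, a kinase-like receptor gene (-6.34 ± 0.52), and Prlr, the prolactin receptor gene (-7.04 ± 0.55), completed the 12 largest decreases.

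Cell cycle genes formed the most uniform group of the comparison. Of 36 tested, 35 rose, 0 fell and 1 did not pass the test, against 24.1% of all tested genes higher in CD8SP, and the median log2 fold change was 2.57. Cdk1, the kinase that drives mitosis, had 91.1, 85.3 and 76.6 CPM in CD8SP and 8.99, 9.83 and 11.9 CPM in CD4SP (3.04 ± 0.15, adjusted p = 1.5e-05). Birc5, the gene of survivin, had 117, 121 and 114 CPM in CD8SP and 14.3, 13.2 and 16.9 CPM in CD4SP (2.99 ± 0.13). The groups were apart for all 36 genes, against 57.3% of all tested genes, and the CD8SP libraries were close to each other. Nusap1, which stabilises the spindle, differed by 2.78 ± 0.14, Bub1, a checkpoint kinase, by 2.58 ± 0.13, and Kif11, a spindle motor, by 2.55 ± 0.13. Genes of DNA replication rose with those of mitosis, among them Mcm5 (2.24), Pcna (2.18) and Rrm2 (3.07), named as examples after their values were seen. The gene that did not pass the test was Ccnd2, with 630.0, 584 and 297 CPM in CD8SP and 763, 777 and 1039 CPM in CD4SP (-0.77 ± 0.28, adjusted p = 0.0518), whereas Ccnd3, the other D-type cyclin of the list, rose by 1.26.

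On the scale of all 40 libraries, the summed level of the 36 cell cycle genes was 11725, 11386 and 10574 CPM in CD8SP and 2829, 2859 and 3778 CPM in CD4SP. It was 6939 to 7481 CPM in DN3, 8344 to 10181 CPM in total DN and 7553 to 9946 CPM in DP libraries. The 3 CD8SP libraries were therefore above every library of the earlier stages shown, and the 3 CD4SP libraries below every one of them. CD8SP replicate 3, the library with the most double-positive transcripts, had the lowest of the 3 CD8SP sums. The double-positive sums given above were also higher in CD8SP than in CD4SP, and their part in the cell cycle difference was not tested.

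The promoters of 5 mitotic genes of this list are shown because each holds at least 2 CCAAT boxes, the sequence bound by NF-Y, in the 120 bases before its start; they were chosen after the values and motifs were seen. The sequences are those of RefSeq on build GRCm38.p6, all on the minus strand, at chr10:69352913-69353032 (Cdk1), chr13:100786487-100786606 (Ccnb1), chr9:70421555-70421674 (Ccnb2), chr4:118437344-118437463 (Cdc20) and chr11:99024190-99024309 (Top2a). Each runs 5′ to 3′ and ends at the base before the start. Capitals mark CCAAT or its complement ATTGG, and TTTGAA or its complement TTCAAA, the core of the cell cycle genes homology region bound by the DREAM complex.
Cdk1: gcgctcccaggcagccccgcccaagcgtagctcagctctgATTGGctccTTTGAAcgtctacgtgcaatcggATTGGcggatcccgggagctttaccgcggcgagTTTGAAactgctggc
Ccnb1: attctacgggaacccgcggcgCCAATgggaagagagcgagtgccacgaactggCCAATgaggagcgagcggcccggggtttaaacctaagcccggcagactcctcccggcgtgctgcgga
Ccnb2: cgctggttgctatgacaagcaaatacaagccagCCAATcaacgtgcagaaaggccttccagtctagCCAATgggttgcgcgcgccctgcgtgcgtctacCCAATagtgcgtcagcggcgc
Cdc20: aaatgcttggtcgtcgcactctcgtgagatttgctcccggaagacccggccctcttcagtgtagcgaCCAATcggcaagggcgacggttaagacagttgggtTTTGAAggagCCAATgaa
Top2a: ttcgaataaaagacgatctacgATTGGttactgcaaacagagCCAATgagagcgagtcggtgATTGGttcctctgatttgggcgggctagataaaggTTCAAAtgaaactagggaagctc

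The nearest CCAAT of Cdk1 lies 48 bases before its start and its nearest TTTGAA 15 bases before it. Ccnb2 holds CCAAT at 87, 54 and 21 bases before the start, and Top2a, the topoisomerase gene, at 98, 78 and 58 bases. These 5 genes rose by 3.04 for Cdk1, 3.24 for Ccnb1, 3.02 for Ccnb2, 2.71 for Cdc20 and 2.56 for Top2a. Over the list, 22 of 31 promoters found in the table (29 genes) held CCAAT on either strand (71%), and 41.9% held at least 2. Of all 32851 promoters, 21.3% held CCAAT and 4.6% at least 2, while promoters of all tested genes held it in 24.8%, those of genes higher in CD8SP in 28.8% and those of genes lower in CD8SP in 21%. TTTGAA was in 22.6% of the list's promoters, 7.12% of all promoters, 4.06% of those of tested genes, 5.82% of those of higher genes and 3.21% of those of lower genes. Matches to the 2 motifs were counted separately, whether or not they shared a base, and a match is a description of the letters, not a site of binding.

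Most ribosomal protein genes were higher in CD8SP, by smaller amounts. Of 32 tested, 27 rose, 0 fell and 5 did not pass the test, against 24.1% higher among all tested genes. The list's median was 0.695. Rps2 had 2295, 2028 and 1511 CPM in CD8SP and 912, 1007 and 1041 CPM in CD4SP (0.98 ± 0.18, adjusted p = 0.00338). Rpl11 had 1000.2, 859 and 731 CPM in CD8SP and 478, 447 and 309 CPM in CD4SP (1.07 ± 0.20). The groups were apart for both, with CD8SP replicate 3 nearest to the CD4SP libraries. On the scale of all 40 libraries the list summed to 39999, 38962 and 29219 CPM in CD8SP, 24012, 24889.9 and 20016 CPM in CD4SP and 14098 to 16037 CPM in DP. The number that rose was 17 without CD4SP replicate 1 and 32 without both replicates 3, and reads of these genes can be shared with processed pseudogenes.

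Of 26 tested genes of metabolism, 13 rose, 2 fell and 11 did not pass the test, against 24.1% higher among all tested genes. The list's median was 0.399. Sqle, squalene epoxidase of the sterol pathway, had 39.1, 41.5 and 27.8 CPM in CD8SP and 6.83, 4.49 and 10.5 CPM in CD4SP (2.31 ± 0.30, adjusted p = 0.000729). Insig1, a sensor of sterols, differed by 1.55 ± 0.14 and Hmgcs1 by 0.93 ± 0.16. No library crossed between the groups for these 3 genes. The 2 that fell were the transporter genes Slc2a3 (-1.07 ± 0.14), for glucose, and Slc16a3 (-0.91), for lactate.

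**Figure D3:**
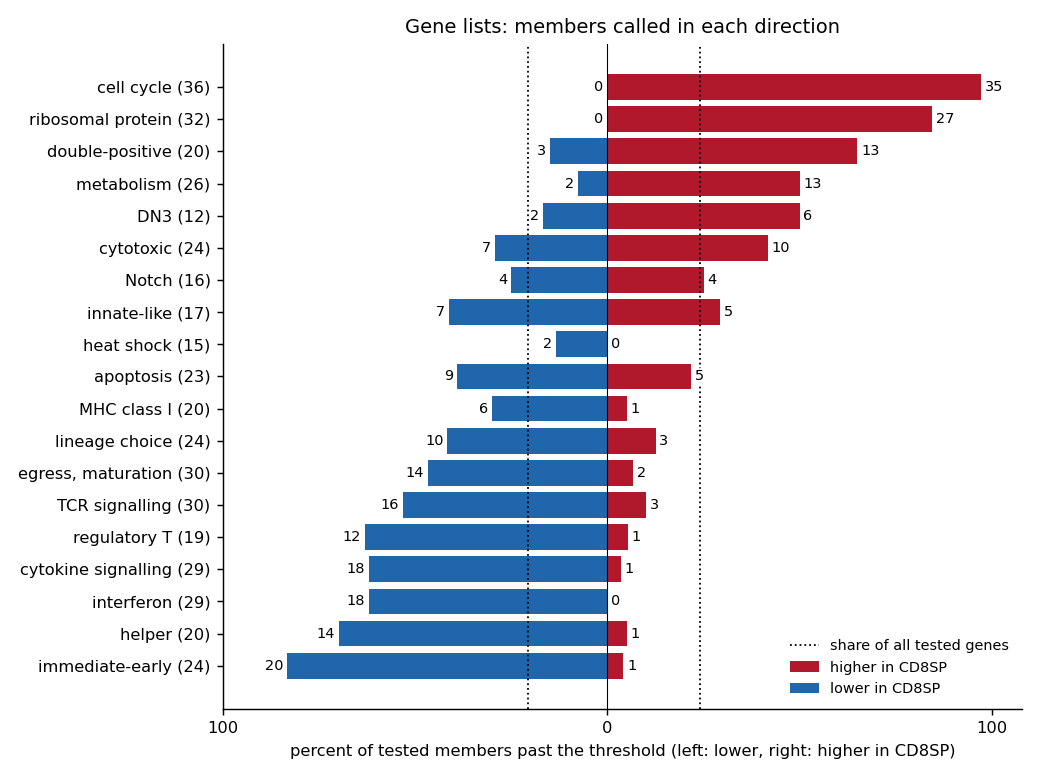
For each list, the percent of its tested members that were lower (blue, left) or higher (red, right) in CD8SP, with the number of members at the bar's end and the number tested beside the name; dotted lines mark the 20.6% of all tested genes that were lower and the 24.1% that were higher. The cell cycle list, with 35 of 36 higher, and the immediate-early list, with 20 of 24 lower, are at the 2 ends.

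Genes of the double-positive stage were mostly higher in CD8SP. Of 20 tested, 13 rose, 3 fell and 4 did not pass the test, against 24.1% higher among all tested genes. The list's median was 1.73. Dntt, terminal transferase, had 1003, 703 and 1327 CPM in CD8SP and 68.5, 64.7 and 207 CPM in CD4SP (3.16 ± 0.51, adjusted p = 0.00243). Mns1 had 117, 95.4 and 93.3 CPM in CD8SP and 18.6, 18.5 and 30.7 CPM in CD4SP (2.17 ± 0.22), and Slc29a1, a nucleoside transporter gene, differed by 1.46 ± 0.20. The groups did not overlap for these genes, and CD4SP replicate 3 was the highest CD4SP library for each. Rag1, with the levels given above, differed by 3.34 ± 0.98 (adjusted p = 0.0282). St6gal1, a sialyltransferase gene, went the other way, with 159, 133 and 129 CPM in CD8SP and 517, 506 and 557 CPM in CD4SP (-1.91 ± 0.14), as did Rasal1 (-1.26 ± 0.18) and Sh2d2a (-0.59). The number that rose was 8 without CD4SP replicate 1, and without both replicates 3 the number that fell was 6.

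Genes of the DN3 stage gave a mixed picture. Of 12 tested, 6 rose (3 in the fit of all RNA libraries), 2 fell and 4 did not pass the test. The shares over all tested genes were 24.1% higher and 20.6% lower. Ptcra, the pre-T-cell receptor alpha chain, had 55.3, 38.7 and 48.5 CPM in CD8SP and 2.20, 2.32 and 11.3 CPM in CD4SP (3.18 ± 0.62, adjusted p = 0.00558). Notch3, a receptor of early thymocytes, had 42.5, 38.5 and 62.5 CPM in CD8SP and 6.37, 5.53 and 17.4 CPM in CD4SP (2.30 ± 0.44), and the Notch targets Nrarp and Hes1 differed by 1.28 ± 0.24 and 1.77 ± 0.40. CD4SP replicate 3 was the highest CD4SP library for Ptcra, Notch3 and Hes1 but not for Nrarp. These levels were below those of DN3 cells for Ptcra (202 ± 14.1 CPM, SD, n = 3), Notch3 (523 ± 149 CPM) and Hes1 (109 ± 20.3 CPM) on the scale of all 40 libraries. The 2 that fell were Il2ra and Cd44, the adhesion receptor (-1.90 ± 0.24). Of 16 tested genes of the Notch pathway, 4 rose (Nrarp, Notch3, Hes1 and Notch1), 4 fell (2 without CD8SP replicate 1 or CD4SP replicate 3) and 8 did not pass the test. These counts are near the shares over all tested genes, 24.1% higher and 20.6% lower. The largest decrease in the list was that of the coactivator gene Maml2 (-1.73 ± 0.14).

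**Figure D4:**
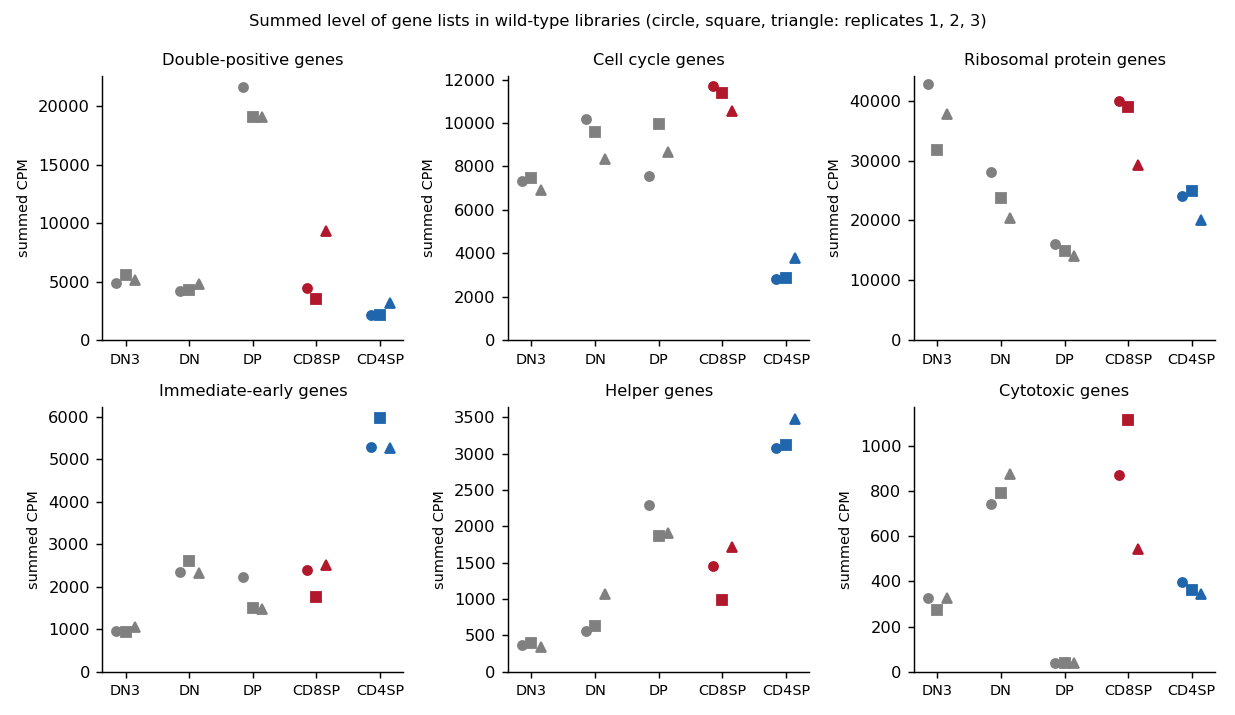
Summed CPM of 6 gene lists in each wild-type library, scaled over all 40 libraries, for DN3, DN, DP, CD8SP (red) and CD4SP (blue). Cell cycle genes are highest in CD8SP (10574 to 11725 CPM) and lowest in CD4SP (2829 to 3778 CPM), and replicate 3 of CD8SP is the library nearest to DP for the double-positive list (9309 CPM).

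Immediate-early genes and targets of T-cell receptor signalling were mostly lower in CD8SP. Of 24 tested, 20 fell, 1 rose and 3 did not pass the test, against 20.6% lower among all tested genes, and the median was -1.52. Junb, a subunit of AP-1, had 189, 147 and 249 CPM in CD8SP and 1039.5, 979 and 594 CPM in CD4SP (-2.16 ± 0.27, adjusted p = 0.000518). Cd69, an early activation receptor, had 89.7, 61.9 and 62.9 CPM in CD8SP and 177, 214 and 274 CPM in CD4SP (-1.63 ± 0.21, adjusted p = 0.000597). The groups did not overlap for either, and replicate 3 was the CD4SP library with the least Junb and the most Cd69. Nfkbid, a nuclear inhibitor of NF-kappa-B, differed by -1.65 ± 0.16, Dusp1, a phosphatase of MAP kinases, by -2.17 ± 0.28 and Ier2 by -1.03 ± 0.13. The Nr4a genes, which report the strength of receptor signalling, fell too, with -1.99 for Nr4a1, -1.24 for Nr4a2 and -1.58 for Nr4a3. Myc rose (0.69 ± 0.19), a call that was lost without CD8SP replicate 1, CD4SP replicate 1 or CD4SP replicate 2. In the fit with all 40 RNA libraries 10 of the list fell.

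These genes also respond to the handling of cells, and its part in their difference was not tested. Heat-shock genes, which respond to handling as well, varied widely within both groups. On the scale of all 40 libraries they summed to 19803, 13666 and 7677 CPM in CD8SP and 6678, 9082 and 16854 CPM in CD4SP, so that the groups overlapped. Of 15 tested, 0 rose and 2 fell, Ddit3, a stress-response factor (-0.98 ± 0.13), and Hspa1a. Among all tested genes, 24.1% were higher and 20.6% lower. Hspa1a had 10.4, 11.8 and 6.41 CPM in CD8SP and 103, 48.5 and 8.76 CPM in CD4SP, and its call (-2.49 ± 0.76, adjusted p = 0.0333) was kept in 1 of 6 fits that left out a library. Its near-identical neighbour Hspa1b, with which it may share reads, had 38.7, 22.1 and 14.5 CPM in CD8SP and 168, 87.1 and 13.0 CPM in CD4SP (-1.83 ± 0.80, adjusted p = 0.0979). Without both replicates 3, 6 heat-shock genes rose and 3 fell, where 3498 of all 11988 tested genes rose and 3025 fell.

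Components of receptor signalling were lower in CD8SP for a majority of the list. Of 30 tested, 16 fell, 3 rose and 11 did not pass the test, against 20.6% lower among all tested genes. The list's median was -0.595. Fyn, a Src-family kinase, had 297, 275 and 221 CPM in CD8SP and 571, 617 and 649.7 CPM in CD4SP (-1.21 ± 0.15, adjusted p = 0.000528). Cd2, an adhesion receptor, had 418, 319 and 271 CPM in CD8SP and 745, 769.7 and 714 CPM in CD4SP (-1.14 ± 0.18), and the kinase genes Prkcq and Txk differed by -0.79 ± 0.13 and -0.88 ± 0.13 and the adaptor gene Lcp2 by -0.88 ± 0.15. No library crossed between the groups for these 5 genes. Lck and Zap70, the first kinases of the cascade, did not pass the test (0.15 ± 0.16 and -0.17 ± 0.13). The 3 that rose were Syk (1.47), the relative of Zap70 used by early thymocytes, Tec (0.98) and Themis (0.69), and this count was 1 without CD4SP replicate 1 and 0 without CD4SP replicate 2. In the fit with all 40 RNA libraries 6 fell.

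Cytokine receptors and their signalling genes were also mostly lower. Of 29 tested, 18 fell, 1 rose and 10 did not pass the test, against 20.6% lower among all tested genes. The list's median was -0.642. Il7r, the alpha chain of the IL-7 receptor, which sustains naive T cells, had 140.0, 143 and 89.0 CPM in CD8SP and 512, 501 and 427 CPM in CD4SP (-1.95 ± 0.20, adjusted p = 0.000215). Ifngr2 had 58.8, 54.7 and 52.7 CPM in CD8SP and 131, 134 and 126 CPM in CD4SP (-1.23 ± 0.11), whereas Ifngr1, the other chain of the interferon-gamma receptor, was the gene that rose (1.15 ± 0.27). The groups were apart for Il7r and Ifngr2, and CD8SP replicate 3 had the least Il7r. Tgfbr2, Tyk2 and Il18r1 differed by -0.94 ± 0.15, -0.79 ± 0.12 and -2.17 ± 0.23. The number that fell was 11 without CD4SP replicate 2 and 10 in the fit with all 40 RNA libraries.

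Genes of maturation and exit from the thymus were lower or did not pass the test, and 2 markers of immaturity were higher. Of 30 tested, 14 fell, 2 rose and 14 did not pass the test, against 20.6% lower among all tested genes. Cd24a, the heat-stable antigen that is lost as thymocytes mature, had 385, 263 and 370.3 CPM in CD8SP and 91.8, 96.0 and 145 CPM in CD4SP (1.61 ± 0.22, adjusted p = 0.000893), and Cxcr4, a chemokine receptor of cortical thymocytes, also rose (1.46 ± 0.30). Itgb2, the beta chain of LFA-1, had 535, 461 and 445 CPM in CD8SP and 1091, 1178 and 1485 CPM in CD4SP (-1.38 ± 0.17, adjusted p = 0.000443). Neither Cd24a nor Itgb2 had overlapping groups. Ly6a, the gene of Sca-1, and Slfn2, a gene of T-cell quiescence, fell (-2.02 ± 0.26 and -0.88 ± 0.13), as did the exit genes Klf2 (-0.80), S1pr1 (-0.87) and Ccr7 (-1.02). Itgb7, an integrin chain of gut homing, did not pass the test (-0.13 ± 0.22). In the fit with all 40 RNA libraries 7 of the list fell.

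Interferon-stimulated genes fell or did not pass the test, 18 and 11 of 29, and 0 rose, with a median of -0.778. Among all tested genes, 20.6% were lower and 24.1% higher. Oasl2 had 16.9, 14.0 and 9.07 CPM in CD8SP and 51.3, 41.3 and 38.6 CPM in CD4SP (-1.71 ± 0.23, adjusted p = 0.000714), and Irf9, a subunit of the factor that interferon activates, had 99.9, 112 and 74.0 CPM in CD8SP and 219, 221 and 196 CPM in CD4SP (-1.15 ± 0.17). Groups were apart for both, and replicate 3 was the lowest library of each group. The count depended on single libraries: 9 fell without CD4SP replicate 1, 9 without CD4SP replicate 2 and 10 without CD8SP replicate 1. Of 20 tested genes of MHC class I and its antigen processing, 6 fell, 1 rose (Psmb8, an immunoproteasome subunit, 0.63 ± 0.14) and 13 did not pass the test, against 20.6% lower among all tested genes. The number that fell was 2 without CD4SP replicate 1 or CD4SP replicate 2 and 3 without CD8SP replicate 1. H2-T24 differed by -1.38 ± 0.13 and the peptide-loading gene Tapbp by -0.64 ± 0.18, and the calls of H2-T23 (-0.53 ± 0.16) and H2-Q4 (-0.68 ± 0.22) were kept in 4 and 2 of the 6 fits that left out a library. Reads of these class I genes can be shared among near-identical copies.

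Of 23 tested genes of apoptosis, 5 rose, 9 fell (5 in the fit of all RNA libraries) and 9 did not pass the test. The number that rose is near the 24.1% of all tested genes that were higher, and 20.6% were lower. Bid, which links death receptors to mitochondria, had 52.7, 48.4 and 47.4 CPM in CD8SP and 11.3, 9.98 and 12.6 CPM in CD4SP (2.13 ± 0.13, adjusted p = 2.3e-05). Bad and Bmf, which promote death at the mitochondrion, were also among those that rose. Cflar, an inhibitor of death receptor signalling, had 95.7, 87.0 and 108 CPM in CD8SP and 188, 189 and 191 CPM in CD4SP and fell (-0.97 ± 0.12), and the survival genes Bcl2 (-1.43) and Mcl1 (-0.47) fell too. The groups did not overlap for Bid or Cflar.

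How far the thymic difference is shared by peripheral cells can be seen only against transgenic spleen, since wild-type splenic T cells were not analysed here, so that tissue and genotype cannot be told apart. Among the splenic libraries, CD8 replicate 1 had a T-cell marker sum of 1535 CPM against 7983 and 8416 CPM in the other CD8 libraries, with a B-cell marker sum of 4573 CPM against 1014 and 691 CPM, and CD4 replicate 3 had an erythroid marker sum of 58883 CPM. With all 6 libraries, 61 of 12429 genes differed between splenic CD8 and CD4 cells (0.491%). Without CD8 replicate 1, an alternative chosen after the data were seen, 1289 of 12646 differed (10.2%), 517 higher in CD8 and 772 lower. Of the 11460 genes tested in both tissues, 2750 were higher and 2378 lower in thymic CD8SP. These shares are near the 24.1% and 20.6% of all genes tested in thymus. Higher in CD8 cells in both tissues were 133, which is 27.1% of those higher in spleen and 4.84% of those higher in thymus. The 27.1% is near that 24.1% share. Another 274 were lower in both, 44.8% of those lower in spleen (against the 20.6% share) and 11.5% of those lower in thymus. Opposite calls were made for 97 genes higher in thymus and lower in spleen and for 94 genes the other way round. Without CD4 replicate 3 as well, also chosen after the data were seen, 4494 of 12355 genes differed in spleen (36.4%). Of these, 512 were higher and 668 lower at both sites, and 387 and 370 had opposite calls. The 512 are 26.3% of those higher in spleen, again near the thymic share, and the 668 are 34.2% of those lower. With all 6 libraries 1 was higher and 30 lower at both sites.

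Helper and regulatory T-cell genes called in spleen were mostly lower in CD8 cells, and how many depended on the libraries. With all 6 libraries, 2 of 20 helper and 6 of 21 regulatory T-cell genes were lower and 0 higher. Without CD8 replicate 1, 8 of 22 helper genes were lower in splenic CD8 cells and 0 higher, with a median of -1.64, and 16 of 21 regulatory T-cell genes were lower and 0 higher, with a median of -3.55. Without CD4 replicate 3 as well, 15 helper genes were lower and 1 higher, and 20 regulatory T-cell genes were lower and 0 higher. The share of all splenic genes called, both directions together, was 0.491%, 10.2% and 36.4% in these settings, in the same order. The list counts thus grew along with the number of calls over all genes. On the scale of all 40 libraries, Cd40lg had 0.439, 0.807 and 1.49 CPM in splenic CD8 and 81.9, 92.8 and 31.0 CPM in splenic CD4 libraries. Foxp3 had 4.79, 1.86 and 3.49 CPM in splenic CD8 and 269, 305 and 210.1 CPM in splenic CD4 libraries. No splenic CD8 library reached the level of a splenic CD4 library for either gene. Zbtb7b was detected in splenic CD8 cells, with 82.7, 27.7 and 33.3 CPM, against 323, 318 and 322 CPM in splenic CD4 cells, and the difference of the splenic and thymic log2 fold changes was 5.69 ± 0.69 (adjusted p = 0.000621).

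A test of the difference itself, the splenic CD8 over CD4 log2 fold change minus the thymic one with all 12 libraries, called 2416 of 13001 genes (18.6%), 954 positive and 1462 negative. Without the 2 splenic libraries that stood apart it called 3857 of 13018 genes (29.6%), 1507 positive and 2350 negative, and the count was 1059 without wild-type CD4SP replicate 2, 1101 without wild-type CD4SP replicate 1 and 1173 without wild-type CD8SP replicate 1. Of 21 regulatory T-cell genes it called 8 negative and 0 positive, and 13 negative without those splenic libraries. Of 36 cell cycle genes it called 32 negative and 0 positive, and 35 negative without those libraries. In spleen, 0 cell cycle genes were called with all 6 libraries, while without CD8 replicate 1, 0 were higher in CD8 cells and 3 lower, with a median of -0.707, and without CD4 replicate 3 as well 2 were higher and 24 lower. Over all genes tested in spleen, 0.491%, 10.2% and 36.4% were called in these settings, in the same order. Cdk1 had 7.14, 5.53 and 3.95 CPM in splenic CD8 and 10.7, 11.9 and 5.95 CPM in splenic CD4 cells, and the difference between tissues was -3.82 ± 0.39 (adjusted p = 0.000261). Immediate-early genes gave 9 positive and 1 negative of 26, or 12 and 1 without those libraries, and the splenic list had 3 higher and 4 lower in CD8 cells without CD8 replicate 1, against 0 and 2 with all 6 libraries.

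Cytotoxic genes called in spleen were higher in CD8 cells, and their number also depended on the libraries. With all 6 splenic libraries, 0 of 25 were called with edgeR, with a median of 1.52. Without CD8 replicate 1, 15 of 25 were higher in CD8 cells and 0 lower, with a median of 2.02, and without CD4 replicate 3 as well 18 were higher and 0 lower. All splenic genes were called at shares of 0.491%, 10.2% and 36.4% in these settings, both directions together. Nkg7 had 68.9, 571 and 643 CPM in splenic CD8 and 39.1, 56.0 and 55.7 CPM in splenic CD4 cells, a difference between tissues of 0.04 ± 0.83 (adjusted p = 0.984). Gzma had 13.0, 7.64 and 9.69 CPM in splenic CD8 and 10.8, 8.53 and 50.3 CPM in splenic CD4 cells, a difference between tissues of -5.64 ± 1.15 (adjusted p = 0.00878). Itgae, with 50.0, 50.8 and 59.8 CPM and 34.7, 55.2 and 13.1 CPM in the same order, gave -3.97 ± 0.66 (adjusted p = 0.00351), and Dapl1 was the other negative gene (-2.46 ± 0.58). The 8 positive genes of the list included Klrk1 (5.26 ± 0.74), Klrc1 (5.30 ± 1.27), Klrc2 (7.73 ± 1.69), Fasl (4.69 ± 0.98) and Tbx21 (2.96 ± 0.84), 4 of which fell in thymic CD8SP, while Klrc1 did not pass the test there. Without the 2 splenic libraries that stood apart, 13 of the list were positive and the same 3 genes, Gzma, Itgae and Dapl1, negative.

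**Figure D5:**
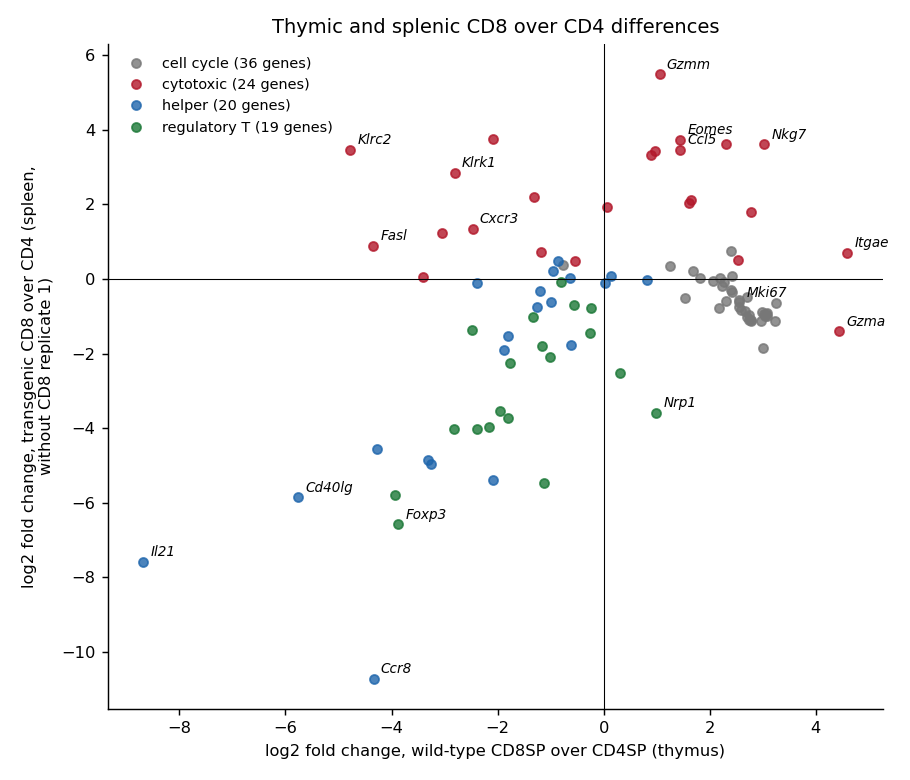
Log2 fold change of wild-type CD8SP over CD4SP thymocytes (x axis) against that of transgenic splenic CD8 over CD4 cells without CD8 replicate 1 (y axis), for members of 4 lists tested in both. Cell cycle genes (grey) lie to the right, near 0 or below on the y axis, cytotoxic genes (red) lie mostly above 0 in spleen but on both sides in thymus, and helper and regulatory T-cell genes (blue, green) extend to the lower left; positions of genes near 0 counts in CD8 cells, such as Il21, depend on the prior count.

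The same difference could be set against CD8SP and CD4SP thymocytes of the hCD2-LMO2 knock-in genotype, but those libraries went against their labels. Cd8a had 92.4, 3069.6 and 825 CPM in the transgenic libraries labelled CD4SP, and Cd4 had 146, 159.5 and 1412 CPM in those labelled CD8SP and 191, 2151 and 1299.8 CPM in those labelled CD4SP. Zbtb7b had 0.558, 5.12 and 2.57 CPM in the transgenic libraries labelled CD8SP and 32.1, 2.89 and 177 CPM in those labelled CD4SP. Between these libraries 0 of 11934 genes were called with edgeR, and 749 had an unadjusted p under 0.05. The difference between the transgenic and the wild-type log2 fold change was called for 4 of 12507 genes (0.032%), with 2067 at an unadjusted p under 0.05. Zfp281, a zinc finger factor, had 54.7 ± 4.09 CPM in transgenic CD8SP and 58.5 ± 6.30 CPM in transgenic CD4SP, against 66.1 ± 7.01 CPM in wild-type CD8SP and 275 ± 24.5 CPM in wild-type CD4SP (SD, n = 3 each, scaled over these 12 libraries), a difference of 1.96 ± 0.20 (adjusted p = 0.00881). Mcoln2 and Cxxc5 gave -3.50 ± 0.45 and -2.75 ± 0.36 (adjusted p = 0.0379 for both). Calls of this comparison rest on libraries that go against their labels. They were all lost with the replicate number as a block, and without wild-type CD8SP replicate 1 or 3 or wild-type CD4SP replicate 1 or 2, where 0 genes were called, while without transgenic CD4SP replicate 3 there were 611.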

How the data were processed

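RNA sequencing read counts per gene were deposited by the authors as whole numbers for 40 libraries, with FPKM values deposited beside them. Libraries were built by BGI, per the labels' protocols. The tools listed in the submitters' processing notes are HISAT, Bowtie2, MACS2 and DESeq2, and the listed builds are mm9 and mm10, with no version or role stated. The sources used here name neither the counting tool nor the strandedness. The table's 4 further value columns, 2 of them counts, were not used, and the 5 ChIP libraries were not analysed here. The name of CD8SP replicate 1 ends in N, which the labels do not explain.

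Counts were tested with edgeR 4.0.16 (limma 3.58.1, R 4.3.3): filterByExpr (minimum count 10, minimum total 15), TMM scaling, the robust quasi-likelihood test with a prior count of 0.125, two-sided, and Benjamini-Hochberg adjustment at 0.05 over all genes tested. Each comparison used its own libraries, and differences between comparisons were tested as an interaction of 4 groups. The FPKM were used only to compare levels between genes. The script was tested on simulated counts. Alternatives were RLE scaling, no filter, DESeq2 1.42.0, a replicate block, fits of all wild-type or all RNA libraries, and leaving out each library; leaving out both replicates 3 or the splenic libraries that stand apart was added after the data were seen.

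The members and the 26 gene lists (508 of 511 symbols found) were chosen with earlier results of these data known. Genes are named by rule: Cd4, Cd8a, Cd8b1, Zbtb7b, Runx3, Gata3 and Tox, the 12 largest called increases and decreases with groups apart and a mean of at least 5 CPM, the 5 most significant members per list, and the 5 largest differences each way for the spleen and transgenic comparisons. Some genes that this rule names are not reported here, and other genes were named after their values were seen. Promoters came from RefSeq's table for GRCm38.p6, handled with Python 3.11.15 and pandas 2.3.3; figures used matplotlib 3.10.9.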

Additional observations from a re-analysis of the deposited data

Results flagged for a closer look

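The CD8 over CD4 difference was not the same in transgenic spleen as in wild-type thymus for 2416 genes, by the test of the difference itself with edgeR, and tissue and genotype cannot be told apart. Each value below is the splenic minus the thymic log2 fold change, and levels are mean CPM ± SD scaled over the 12 libraries (n = 3 each). Klra23 gave 9.66, with 7.22 ± 4.54 CPM in splenic CD8 and 0.225 ± 0.0816 CPM in splenic CD4 cells, against 0.0158 ± 0.0273 CPM in CD8SP and 0.498 ± 0.254 CPM in CD4SP. Klrc3 gave 8.68, Klra7 gave 8.41 and Klra9 gave 8.13. These are NK-type receptor genes with near-0 counts in wild-type CD8SP, so that the fitted values depend on the prior count, and reads of Klra genes may be shared among copies. Prlr gave 8.46, but its call was lost without splenic CD8 replicate 1 (2.44, adjusted p = 0.892).

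In the other direction, Gpr25 gave -7.39, Angptl2 gave -7.38 and Tnfrsf8 gave -6.84. Angptl2, a secreted angiopoietin-like protein, had 1.84 ± 0.558 CPM in splenic CD8 and 68.2 ± 32.8 CPM in splenic CD4 cells, against 39.9 ± 5.35 CPM in CD8SP and 8.93 ± 3.19 CPM in CD4SP. Egfl7 gave -8.92 and Hbb-bt, a beta-globin gene, -6.57, and for both the SD over splenic CD4 libraries exceeded the mean. Without splenic CD4 replicate 3, the library with the highest erythroid marker sum, Egfl7 gave -3.66 (adjusted p = 0.0886) and Hbb-bt -2.56 (adjusted p = 0.18).

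The transgenic and wild-type thymic differences were not the same for 4 genes, of which Zfp281 gave 1.96, Mcoln2 -3.50 and Cxxc5 -2.75. Cxxc5 had 88.0 ± 8.20 CPM in transgenic CD8SP and 105.7 ± 30.5 CPM in transgenic CD4SP, against 66.6 ± 1.98 CPM in wild-type CD8SP and 11.9 ± 4.45 CPM in wild-type CD4SP. The transgenic CD4SP libraries go against their labels, and all 4 calls were lost with the replicate number as a block and without wild-type CD8SP replicate 1 or 3 or wild-type CD4SP replicate 1 or 2.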

How the results depend on the processing

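Of 108 called named genes of the thymic comparison, 105 kept their call and direction in all 6 fits that left out 1 library; the exceptions were Hspa1a, H2-T23 and H2-Q4. RLE scaling (5319 genes changed), no filter (5165), DESeq2 (5699) and all wild-type libraries in the fit (5588) stayed close to the 5304 genes changed, while the fit of all RNA libraries gave 3535, with 2190 higher and 1345 lower, and kept 99 of the 108. Leaving out 1 library gave 3515 to 5533 genes, 2007 to 3005 higher and 1508 to 2528 lower. The lowest counts came without CD4SP replicate 2 (3515, 1508 of them lower) and without CD4SP replicate 1 (3619, 1573 lower), and the cause was not tested. Whether the replicate numbers pair the wild-type libraries was not settled: deviations of same-numbered libraries correlated at -0.225, 0.422 and 0.169. A fit with the number as a replicate block gave 5400 genes, 2849 higher and 2551 lower, and Cd4 at -3.56 (adjusted p = 0.0238). A term for the suffix N could not be fitted, since CD8SP replicate 1 alone carries it.

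For the splenic minus thymic difference, DESeq2 gave 1786 positive genes and the replicate block 2116 in all; leaving out 1 library gave 1059 to 3619 genes, 406 to 1672 positive and 653 to 1947 negative. Without both splenic libraries that stand apart there were 3857, 1507 positive and 2350 negative. For the transgenic minus wild-type difference, no filter gave 32 genes (4 positive, 28 negative), DESeq2 694 (198 and 496), the replicate block 0 (0 and 0), with 1985 at an unadjusted p under 0.05, and leaving out 1 library 0 to 611 (0 to 155 and 0 to 456). Causes were not tested. Genes with few counts limit precision, since 3 libraries per group of 21432962 to 26908811 counts leave a gene near 1 count per library untestable.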
